A study of Homo sapiens with 4 samples.

Results

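Expression of interferon genes was measured in BE(2)C, a cultured neuroblastoma cell line of human origin: the receptors, the transcription factors that carry the signal, the nucleic acid sensors and the genes that interferon induces. They were chosen by a rule on gene symbols, with earlier results of these data known. Of the 14812 genes named on the array, 42 matched. SSRP1 encodes a subunit of FACT, a histone chaperone that helps polymerases pass nucleosomes. Cells received siRNA against SSRP1 (2 samples) or a non-targeting control siRNA (2 samples), both with a lipid transfection reagent, and RNA was isolated 72 hours later. The labels give a single catalogue number for the SSRP1 siRNA, and both groups carry siRNA and lipid reagent. No untransfected sample was analysed here, and nothing in the labels says whether replicates were separate cultures, so the spread between them may be technical.

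Interferons are secreted when cells detect foreign or misplaced nucleic acid through sensors such as RIG-I, MDA5 and cGAS, whose adaptors activate the transcription factor IRF3. Secreted interferon binds its receptors, JAK kinases phosphorylate STAT proteins, and the STATs, with IRF9 in the case of type I interferon, enter the nucleus and switch on a wide set of antiviral genes. Promoters of these genes often carry the interferon-stimulated response element (ISRE) or the gamma-activated site (GAS). Double-stranded RNA delivered with lipid can itself be sensed by this system.

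The values are log2 expression values per probe set, and a difference of 1 is a 2-fold change. Values of different genes come from different probe sets, so the levels of 2 genes are not set against each other, and the median of all genes serves only as a mark of dim values. The target gene SSRP1 had 7.42 and 6.97 on the SSRP1 siRNA arrays, against 9.05 and 9.23 on the control arrays, a log2 change of -1.95 ± 0.17 (SE, limma adjusted p = 0.0479). Leaving out any 1 of the 4 arrays raised that adjusted p to between 0.241 and 0.599. Pearson correlations between arrays lay from 0.990 to 0.993. Of the 9 measured noradrenergic neuroblastoma markers none was dim by the mark of the median. A change above 0 was found for 1 (11.1%), against 48.3% of all genes, and 8 were negative, with DBH at -0.77. None passed the test, but 4 (44.4%) had an unadjusted limma p under 0.05, against 12.6% of all genes. The groups did not overlap for 7 (77.8%), against 44.3% of all genes, with 6 downward. Their summed linear level was 4508 and 4612 on the SSRP1 siRNA arrays, against 5193 and 5222 on the control arrays. Of 10 immune markers 5 were measured, and their summed linear level was 106 and 103 on the SSRP1 siRNA arrays, against 124 and 109 on the control arrays. None of the 5 had an unadjusted p under 0.05. Of 5 fibroblast markers LUM and DCN were measured, with a summed linear level of 391 and 332 on the SSRP1 siRNA arrays, against 205 and 126 on the control arrays. LUM, a matrix proteoglycan gene, had a change of 1.20 without overlap (unadjusted p = 0.00305, limma adjusted p = 0.184), and DCN one of -0.04. The part of these markers in the values of the interferon genes was not tested.

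No interferon gene passed the test. The count was 0 of 42 at a limma adjusted p under 0.05, where 0.0945% of all genes passed, and the smallest adjusted p among the 42 was 0.283. An unadjusted p under 0.05 was found for 5 of 42 (11.9%), against 12.6% of all genes. Of these 5, IFIT2, RSAD2 and IFNGR1 had higher values with SSRP1 siRNA and IFITM10 and OASL lower ones, where 6.56% of all genes were higher and 6.03% lower at this p. The 2 groups of arrays did not overlap for 16 of the 42 genes (38.1%), a smaller share than the 44.3% of all genes. The SSRP1 siRNA arrays lay above the controls in 11 (26.2%), against 21.8% of all genes, and below them in 5 (11.9%), against 22.5%. Of the 42 genes, 30 had a mean below the median of all genes, and among these the groups did not overlap for 36.7%, against 35.1% of all such genes, with 23.3% upward, against 15.9%. No test was made of these differences between shares. In bulk RNA a change in the number of cells that express a gene and a change in RNA per cell cannot be told apart.

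The centre of the 42 genes lay slightly above 0. Their median log2 change was 0.06, beside -0.007 over all genes, and 27 of 42 (64.3%) had a change above 0, beside 48.3% of all genes. The median of the 42 values was 3.31 and 3.48 on the SSRP1 siRNA arrays, against 3.29 and 3.35 on the control arrays. Between replicate arrays of a group these medians had a pooled SD of 0.0889. That SD describes the median level of an array and does not measure the error of the median change of 0.06. Changes ran from -0.47 for IFITM10 to 0.83 for IFIT2. For 40 of the 42 genes the 95% interval lay within a 2-fold change in either direction, and the exceptions were IFIT2 and STAT5A. The values allow smaller changes in the other 40.

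**Figure D1:**
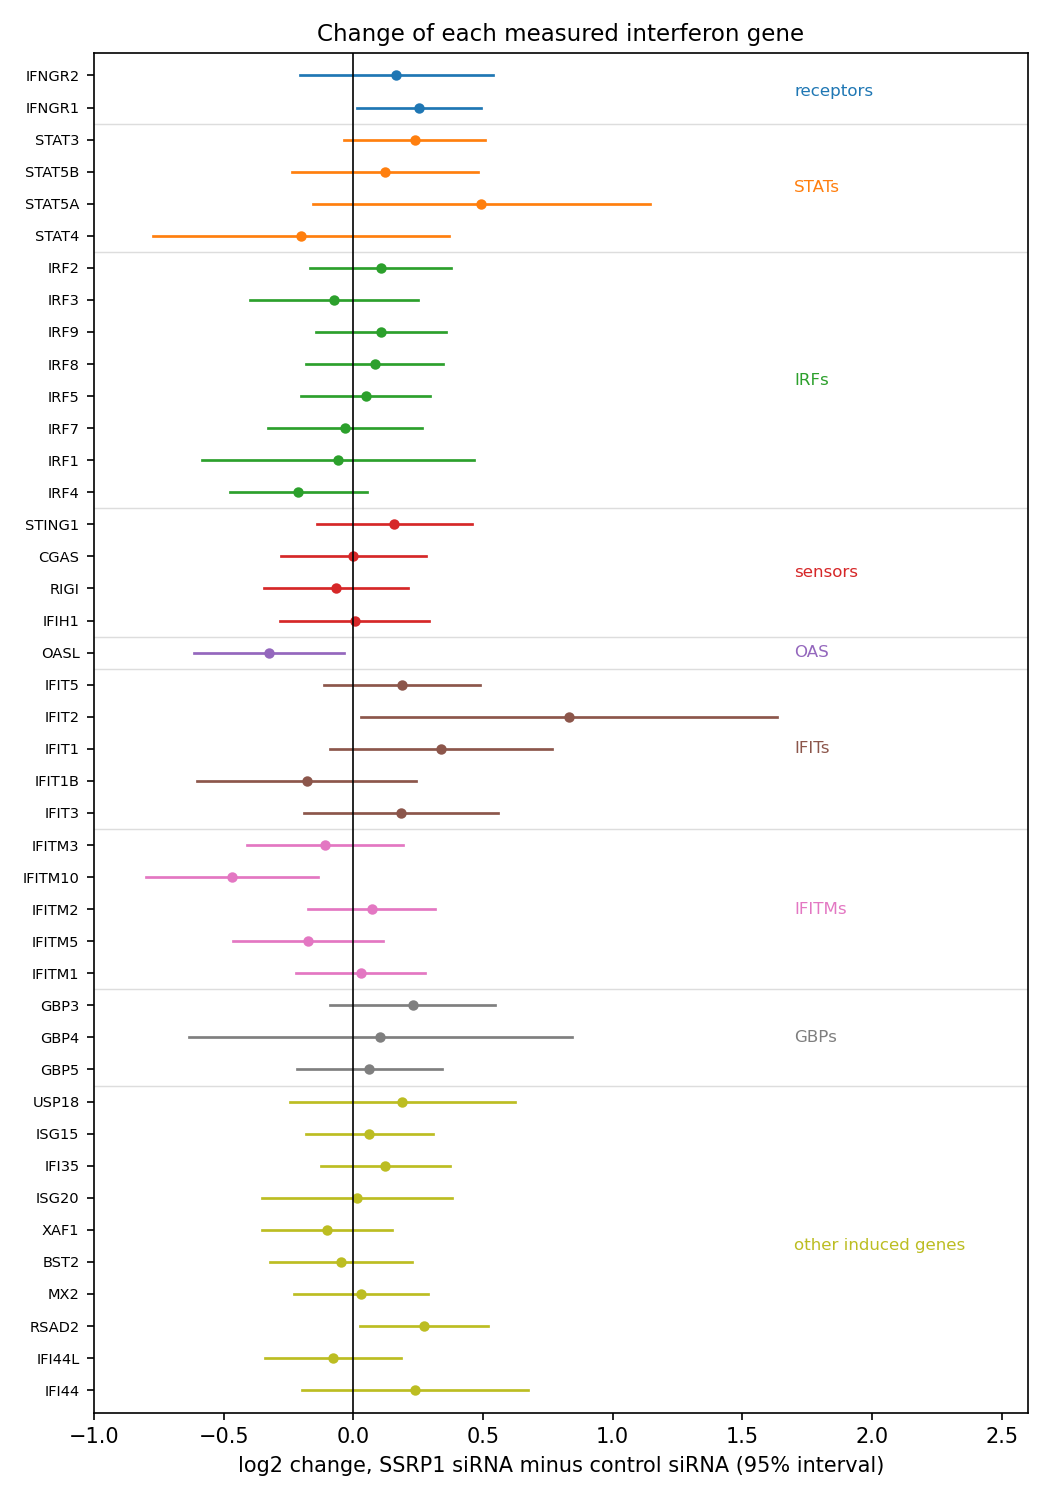
Log2 change of each of the 42 interferon genes (x axis, SSRP1 siRNA minus control siRNA), grouped by role, with points for the estimates and lines for 95% intervals from limma with 2 arrays a group. Most intervals cross 0, and the widest belong to IFIT2, GBP4 and STAT5A, in that order.

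**Figure D2:**
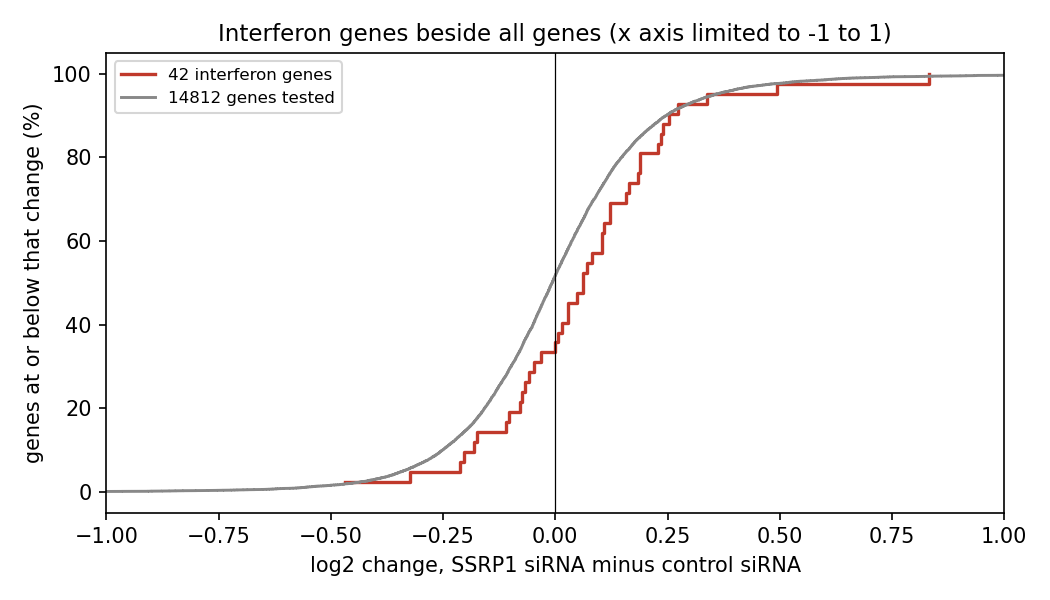
Cumulative share of genes (y axis, %) at or below a given log2 change (x axis, limited to -1 to 1) for the 42 interferon genes and the 14812 genes tested. The curve of the interferon genes lies to the right near 0, with medians of 0.06 and -0.007, and meets that of all genes at larger rises.

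Among the receptors, both chains of the interferon gamma receptor were measured. IFNGR1, the ligand-binding chain, had 4.85 and 4.87 with SSRP1 siRNA, against 4.61 and 4.60 with control siRNA. Both SSRP1 siRNA arrays lay above both controls, and the replicates nearly coincided. The log2 change was 0.25 ± 0.0971 (SE, n = 2 each), with an unadjusted p of 0.0412 and a limma adjusted p of 0.380. Without any 1 array it stayed between 0.25 and 0.26. IFNGR2, the signalling chain, had 5.68 and 5.29 with SSRP1 siRNA, against 5.35 and 5.29 with control siRNA. The arrays overlapped, and the higher mean came from SSRP1 siRNA replicate 1, without which the change was -0.03 in place of 0.17. IFNAR1, IFNAR2 and IFNLR1, and the interferon ligands themselves, were not analysed here.

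Of the STAT factors, STAT3, STAT4, STAT5A and STAT5B are described. STAT3, which mainly answers to cytokines of the interleukin-6 family, had 9.05 and 8.87 with SSRP1 siRNA, against 8.74 and 8.71 with control siRNA. The groups did not overlap, and the log2 change of 0.24 ± 0.11 (SE) had a limma adjusted p of 0.462 and was 0.15 without SSRP1 siRNA replicate 1. STAT5A, a mediator of prolactin and growth hormone signals, had 5.72 and 4.92 with SSRP1 siRNA, against 4.72 and 4.93 with control siRNA. Only SSRP1 siRNA replicate 1 stood above the other arrays. The change of 0.49 (95% interval -0.16 to 1.15) was 0.09 without that array and 0.90 without the other SSRP1 siRNA array. STAT5B, its close relative, had a change of 0.12 with overlapping arrays, 5.44 and 5.28 with SSRP1 siRNA against 5.40 and 5.07 with control siRNA. STAT4, the interleukin-12 responsive member, had 2.45 and 2.85 with SSRP1 siRNA, against 2.55 and 3.15 with control siRNA, a change of -0.20 within the spread of its replicates.

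The interferon regulatory factors (IRFs) had small estimated changes, with 8 measured, 4 above 0 (50%, beside 48.3% of all genes) and 4 below. Their median change was 0.01 and their range -0.21 to 0.11. IRF3, which the sensors activate, had 5.99 and 6.26 with SSRP1 siRNA, against 6.26 and 6.13 with control siRNA, a change of -0.07 with a 95% interval of -0.40 to 0.25. IRF2, which opposes IRF1 at many promoters, had 8.50 and 8.40 with SSRP1 siRNA, against 8.41 and 8.27 with control siRNA, a change of 0.10. Both sets of values overlapped between the groups. IRF4, a factor of lymphocytes, had 2.14 and 2.03 with SSRP1 siRNA, against 2.35 and 2.24 with control siRNA. Its arrays did not overlap, and the change of -0.21 ± 0.11 (SE) had a limma adjusted p of 0.493. IRF9, the DNA-binding partner of the type I response, had a change of 0.11, and both its SSRP1 siRNA arrays (4.41 and 4.35) lay above its controls (4.23 and 4.32). IRF1, IRF5, IRF7 and IRF8 had changes from -0.06 to 0.08 and overlapping arrays.

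The sensors gave no separation between the groups, with overlapping arrays for all 4 measured. RIGI and IFIH1, which encode the RNA sensors RIG-I and MDA5, had changes of -0.07 and 0.01, with 95% intervals of -0.35 to 0.21 and -0.28 to 0.29. CGAS, the DNA sensor, averaged 2.59 in both groups. STING1, the adaptor downstream of cGAS, had 3.42 and 3.65 with SSRP1 siRNA, against 3.33 and 3.43 with control siRNA, a change of 0.16 ± 0.12 (SE, limma adjusted p = 0.654). That change was 0.045 without SSRP1 siRNA replicate 2, 0.27 without SSRP1 siRNA replicate 1 and 0.11 without control replicate 1. The sensor genes other than STING1 had values between 1.58 and 2.68 on every array, where the lowest value of any probe set was 0.502 and the median of named genes 4.63. No detection calls were used, so such dim values can hold background as well as RNA.

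The IFIT genes, which encode proteins that bind viral RNA and block its translation, held the largest single difference. IFIT2 had 3.12 and 4.17 with SSRP1 siRNA, against 2.75 and 2.87 with control siRNA. Both SSRP1 siRNA arrays were above both controls, but they differed from each other by more than the lower of them differed from the controls. The log2 change was 0.83 ± 0.33 (SE), a 1.78-fold difference, with an unadjusted p of 0.0441 and a limma adjusted p of 0.386. Leaving out SSRP1 siRNA replicate 2 gave 0.31, and leaving out SSRP1 siRNA replicate 1 gave 1.36.

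IFIT1, which recognises RNA caps that lack host methylation, had 2.25 and 2.68 with SSRP1 siRNA, against 2.01 and 2.25 with control siRNA. Its groups touched but did not overlap, and its change of 0.34 (limma adjusted p = 0.499) became 0.13 once SSRP1 siRNA replicate 2 was left out and 0.55 once replicate 1 was. IFIT5, which binds RNA with a triphosphate end, had 6.60 and 6.83 with SSRP1 siRNA, against 6.47 and 6.59 with control siRNA. SSRP1 siRNA replicate 2 was the highest array for IFIT1, IFIT2 and IFIT5. For IFIT5 the change was 0.19 ± 0.12 (SE, limma adjusted p = 0.591), and 0.08 without that array. IFIT3, the partner that stabilises IFIT1, ran the other way between the replicates, with 2.16 and 1.80 with SSRP1 siRNA, against 1.88 and 1.72 with control siRNA, a change of 0.18 with overlap. IFIT1B had 1.90 and 2.35 with SSRP1 siRNA, against 2.22 and 2.39 with control siRNA, a change of -0.18 with overlap. The 5 IFIT genes follow each other on chromosome 10 in RefSeq (GRCh38.p14) with 0 protein-coding genes between them, in the order IFIT2, IFIT3, IFIT1B, IFIT1, IFIT5, and their changes in that order were 0.83, 0.18, -0.18, 0.34 and 0.19.

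**Figure D3:**
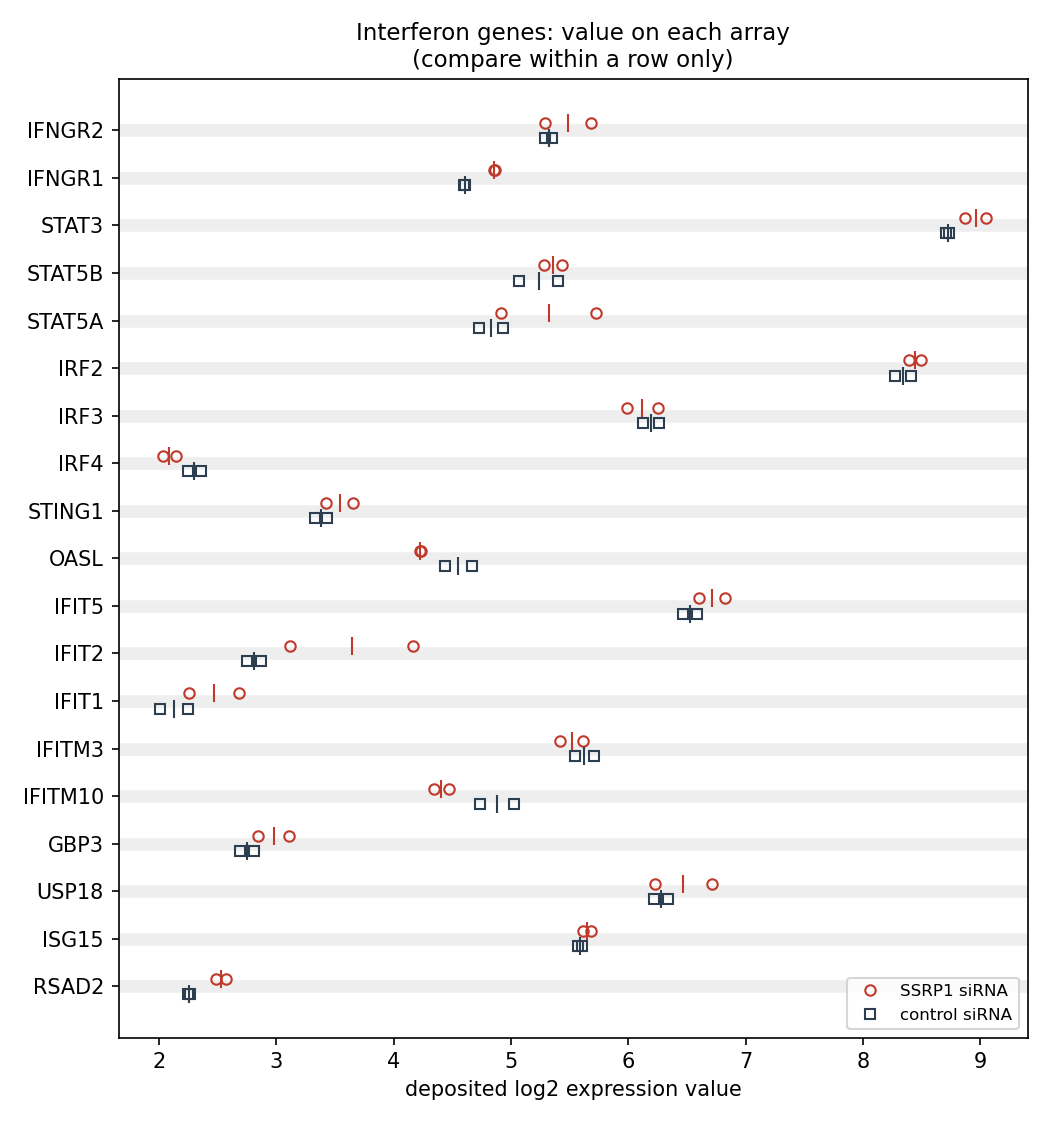
Deposited log2 value (x axis) on each of the 4 arrays for the 19 interferon genes named by rule, with circles for SSRP1 siRNA (upper in each row), squares for control siRNA (lower) and ticks for group means. The replicate arrays of IFIT2 (3.12 and 4.17) and STAT5A (5.72 and 4.92) lie far apart in the SSRP1 siRNA group, and those of IFNGR1 and OASL (4.23 and 4.22) nearly coincide.

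OASL was the 1 gene of the oligoadenylate synthetase family measured. It encodes a relative of these enzymes that makes no oligoadenylate and assists RIG-I. Its values were 4.23 and 4.22 with SSRP1 siRNA, against 4.66 and 4.44 with control siRNA, so both SSRP1 siRNA arrays lay below both controls. The log2 change was -0.32 ± 0.12 (SE, 95% interval -0.62 to -0.03), with an unadjusted p of 0.0341 and a limma adjusted p of 0.361. The value became -0.21 when control replicate 1 was left out and -0.44 when control replicate 2 was. OASL was 1 of 15 interferon genes with a change below 0, beside 27 above. IFITM10 (-0.47), IRF4 (-0.21), STAT4 (-0.20), IFIT1B (-0.18), IFITM5 (-0.17), IFITM3 (-0.11) and XAF1 (-0.10) were among those that shared its sign. IFIT1, IFIT2, IFIT5 and RSAD2 were among those with the opposite one. The difference between these genes was not tested.

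The IFITM genes encode small membrane proteins, of which IFITM1, IFITM2 and IFITM3 block the entry of enveloped viruses. IFITM3 had 5.42 and 5.61 with SSRP1 siRNA, against 5.55 and 5.70 with control siRNA, a change of -0.11 with overlap. IFITM2 and IFITM1 had changes of 0.07 and 0.03. These last 3 genes are near-identical copies, and their probe sets may share signal. IFITM5, a gene of bone-forming cells, had 2.81 and 3.01 with SSRP1 siRNA, against 3.04 and 3.13 with control siRNA, a change of -0.17 without overlap. It lies beside IFITM2, IFITM1 and IFITM3 on chromosome 11.

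IFITM10, a less studied relative, had the smallest p of the 42 genes. Its values were 4.34 and 4.47 with SSRP1 siRNA, against 4.73 and 5.02 with control siRNA, so the groups were separate. The log2 change was -0.47 ± 0.13 (SE, 95% interval -0.80 to -0.14), with an unadjusted p of 0.0137 and a limma adjusted p of 0.283. It ran from -0.61 without control replicate 1 to -0.32 without control replicate 2. Of the 5 IFITM genes 2 were above 0 and 3 below, with a median of -0.11.

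The guanylate-binding proteins (GBPs) are interferon gamma-induced GTPases that attack vacuoles holding microbes. GBP3 had 2.85 and 3.11 with SSRP1 siRNA, against 2.81 and 2.69 with control siRNA. The groups did not overlap, but SSRP1 siRNA replicate 1 exceeded the nearer control by little, and the change of 0.23 ± 0.13 (SE, limma adjusted p = 0.538) was 0.10 without SSRP1 siRNA replicate 2. GBP4 had its replicates further apart than its groups, with 2.50 and 1.92 with SSRP1 siRNA, against 1.72 and 2.49 with control siRNA. GBP5 had a change of 0.06 with overlap.

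The other interferon-induced genes included the ubiquitin-like modifier ISG15 and its deconjugating enzyme USP18. ISG15 had 5.62 and 5.68 with SSRP1 siRNA, against 5.57 and 5.61 with control siRNA. The groups were separated by a narrow gap, and the change was 0.06 with a 95% interval of -0.18 to 0.31. USP18, which also restrains the type I receptor, had 6.23 and 6.71 with SSRP1 siRNA, against 6.22 and 6.34 with control siRNA. Its mean difference of 0.19 rested on SSRP1 siRNA replicate 2, and the change was -0.05 without that array.

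RSAD2, which encodes viperin, an enzyme that makes a chain-terminating nucleotide, had 2.48 and 2.57 with SSRP1 siRNA, against 2.26 and 2.24 with control siRNA. The groups did not overlap, as for 35.1% of all genes below the median level, and the gap between them exceeded the gaps between replicates. The log2 change was 0.27 ± 0.10 (SE, 95% interval 0.02 to 0.52), with an unadjusted p of 0.0361 and a limma adjusted p of 0.367, and it lay between 0.23 and 0.31 without any 1 array. The unadjusted limma p was 0.0824 with an intensity trend in the variances and 0.0563 when every probe set was fitted. All 4 values were low in the range of the array. The other 7 genes of this group were IFI35, ISG20, XAF1, BST2, MX2, IFI44 and IFI44L. Their changes ran from -0.10 for XAF1, a pro-apoptotic gene, to 0.24 for IFI44, an interferon-induced antiviral gene, and their adjusted p from 0.641 to 0.982. IFI35 had 4.51 and 4.57 with SSRP1 siRNA, against 4.45 and 4.38 with control siRNA, higher without overlap. XAF1 had 3.23 and 3.20 with SSRP1 siRNA, against 3.37 and 3.27 with control siRNA, lower without overlap. The arrays of the other 5 overlapped.

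**Figure D4:**
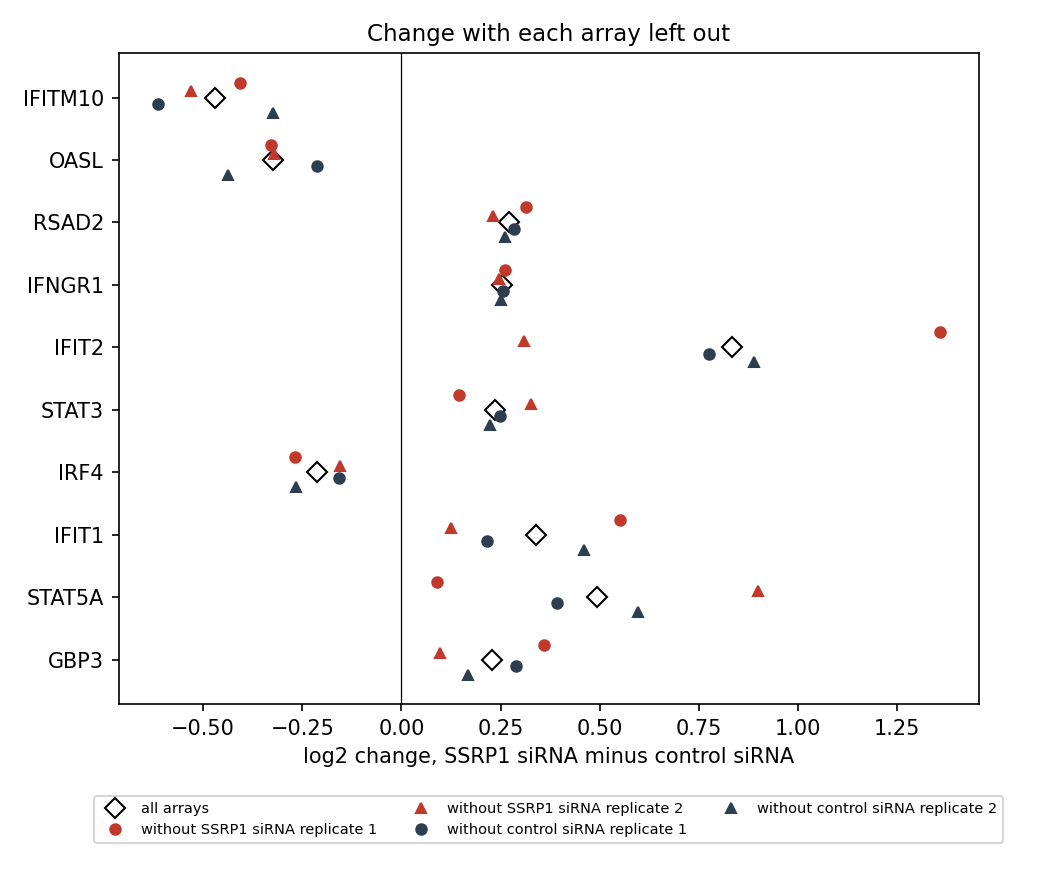
Log2 change (x axis, SSRP1 siRNA minus control siRNA) of the 10 interferon genes with the smallest p, with diamonds for all 4 arrays and filled symbols for each array left out. IFIT2 moves between 0.31 and 1.36 and STAT5A between 0.09 and 0.90 with the SSRP1 siRNA array left out, and IFNGR1 stays between 0.25 and 0.26.

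Promoter sequence was set beside these values for the genes with an entry in RefSeq's GRCh38.p14 promoter table, which gives 250 bases before and 50 after a gene's start. An entry was found for 30 of the 42 genes. The 12 without one were CGAS, GBP5, IFIT2, IFITM2, IFITM10, IRF2, IRF3, IRF7, MX2, OASL, STING1 and USP18. The ISRE was searched as GAAA, any 2 bases, GAAA, on both strands, so that the reverse strand reads TTTC, any 2 bases, TTTC. It was present for 14 of 30 interferon genes (46.7%), for 3.89% of the 10736 tested genes with an entry and for 4.38% of all 27305 genes in the table. The GAS, searched as TTCNNNGAA, which reads the same on both strands, was present for 6 of 30 (20%), beside 8.77% of tested genes. It overlapped ISRE letters in BST2 and IFITM1.

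The 160 bases before the start are shown for 5 interferon-induced genes that carry the ISRE letters there, so that genes with different changes can be compared. Capitals mark the ISRE letters, and every stretch is written in the direction of its gene.
IFIT1 (chr10:89392463-89392622, plus strand): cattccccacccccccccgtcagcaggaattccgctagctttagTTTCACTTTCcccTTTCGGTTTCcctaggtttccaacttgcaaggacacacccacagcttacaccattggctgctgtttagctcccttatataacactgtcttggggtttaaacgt
IFIT5 (chr10:89414408-89414567, plus strand): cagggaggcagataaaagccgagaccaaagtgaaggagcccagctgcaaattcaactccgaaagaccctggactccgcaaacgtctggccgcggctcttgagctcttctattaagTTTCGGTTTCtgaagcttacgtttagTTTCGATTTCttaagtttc
RSAD2 (chr2:6877617-6877776, plus strand): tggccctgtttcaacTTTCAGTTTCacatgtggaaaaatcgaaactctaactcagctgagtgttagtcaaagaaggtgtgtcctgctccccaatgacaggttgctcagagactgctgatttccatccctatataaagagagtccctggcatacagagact
ISG15 (chr1:1013337-1013496, plus strand): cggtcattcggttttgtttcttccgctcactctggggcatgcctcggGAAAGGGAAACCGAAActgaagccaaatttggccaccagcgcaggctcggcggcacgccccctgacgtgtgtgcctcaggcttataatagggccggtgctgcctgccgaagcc
IFITM3 (chr11:320861-321020, minus strand): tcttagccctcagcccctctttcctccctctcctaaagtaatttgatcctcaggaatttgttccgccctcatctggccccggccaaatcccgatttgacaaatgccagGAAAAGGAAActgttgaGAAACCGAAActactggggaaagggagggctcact
IFIT1, IFIT5, ISG15 and IFITM3 hold 2 such stretches each in these bases, and RSAD2 holds 1 in the entry shown, which is 1 of its 2. In ISG15 the stretches overlap. Their log2 changes were 0.34 for IFIT1, 0.19 for IFIT5, 0.27 for RSAD2, 0.06 for ISG15 and -0.11 for IFITM3. The genes shown were picked so that their changes differed, and none of the changes passed the test. The only negative one, that of IFITM3, had a 95% interval of -0.41 to 0.19. A difference in sign between these genes was therefore not established, and a relation of their changes to the ISRE letters was not tested.

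Of the 30 genes with an entry, the 14 with the ISRE letters had a median log2 change of 0.08, with 11 above 0 and a range of -0.11 to 0.34. The 16 genes without them in this window had a median of 0.06, with 9 above 0 and a range of -0.21 to 0.49. Among the 14 the groups did not overlap upward for 5 and downward for 0, beside 4 and 3 among the 16, where 21.8% of all genes did so upward and 22.5% downward. No test was made of this difference, and a match of letters is not evidence of a bound site.

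Other genes of the pathway were taken from a list of 90 kinases, adaptors, inhibitors and further induced genes, of which 51 were measured. None passed the limma test, the smallest adjusted p was 0.140, and 8 (15.7%) had an unadjusted p under 0.05, against 12.6% of all genes. Of the 8, 6 were higher and 2 lower, where 6.56% of all genes were higher and 6.03% lower. The median log2 change was -0.004, with 25 above 0 and 26 below. The groups did not overlap for 31 of the 51 genes (60.8%), against 44.3% of all genes, with 14 upward (27.5%, against 21.8%) and 17 downward (33.3%, against 22.5%). No test was made of these shares. MYD88, the adaptor of most Toll-like receptors, had the smallest p. Its values were 5.88 and 5.78 with SSRP1 siRNA, against 5.26 and 5.19 with control siRNA, a change of 0.60 ± 0.10 (SE, limma adjusted p = 0.140). It passed with an intensity trend in the variances (adjusted p = 0.0485) and in a fit limited to genes no dimmer than the median (adjusted p = 0.0295).

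The other pathway genes among the 5 with the smallest p also had higher values with SSRP1 siRNA without overlap. NMI, which binds STAT proteins, had 5.61 and 5.16 with SSRP1 siRNA, against 4.77 and 4.68 with control siRNA, a change of 0.66 that was 0.43 without SSRP1 siRNA replicate 1. SOCS1, a feedback inhibitor of JAK kinases that interferon induces, had 4.42 and 4.21 with SSRP1 siRNA, against 3.87 and 3.91 with control siRNA, a change of 0.43. These 2 act inside the cell on the same kinase and STAT pathway. JAK1, the kinase shared by all interferon receptors, had 7.73 and 7.86 with SSRP1 siRNA, against 7.55 and 7.24 with control siRNA, a change of 0.40 that was 0.24 without control replicate 2. IRAK1, a kinase that acts after MYD88, had a change of 0.39. Their limma adjusted p lay between 0.242 and 0.350. The 2 pathway genes that were lower at an unadjusted limma p under 0.05 were SP110 (-0.34) and TRIM14 (-0.33), both without overlap. The other pathway genes named by the rule lay slightly below 0. EIF2AK2, the kinase PKR that double-stranded RNA activates, had a change of -0.12 (95% interval -0.39 to 0.15), SAMHD1, a nucleotide hydrolase that restricts retroviruses, -0.12, PNPT1, a mitochondrial RNA exonuclease, -0.16 and B2M, the light chain of MHC class I, -0.07.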

How the data were processed

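Per the labels' protocols, 100 ng of RNA from each of the 4 samples was labelled with biotin for Affymetrix Human Gene 2.0 ST arrays. The authors deposited log2 values for 46255 probe sets. Per the submitters' processing notes these come from RMA, whose software version is not given in the sources used here. The values (0.502 to 12.8) fit a log2 scale. RMA sets the arrays to nearly equal distributions, so a shift of all transcripts would not show.

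The platform annotation gave 15835 probe sets 1 symbol, 0 several and 30420 none. The 14812 genes were each given by the probe set with the highest mean over the 4 arrays, and each interferon gene had 1. limma (3.58.1, R 4.3.3) was fitted to all genes, SSRP1 siRNA minus control siRNA, with no block, trend or filter, and Benjamini-Hochberg adjustment over all genes at 0.05. All p-values are from that two-sided test, and the script was tested on simulated data. An exact permutation of 2 against 2 samples could not go below 0.333 and was not used.

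The members, role groups, markers and pathway list were chosen with earlier results of these data known. By rule the text names SSRP1, OASL, every interferon gene at or above the median level (4.63), the 10 with the smallest p and the one with the highest mean in each role. In the pathway list the rule names the 5 with the smallest p and the 5 with the highest mean. Other genes are named to account for all members, and SP110 and TRIM14 to show pathway genes with lower values. The alternatives were a replicate block, an intensity trend, robust variances, quantile normalization, median centring, averaged probe sets, a level filter, all probe sets, each array left out and a threshold of 0.1. Background correction and scan batch could not be varied from the table.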

Additional observations from a re-analysis of the deposited data

How the results depend on the processing

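The count of 0 interferon genes past the limma test held under every alternative run. The smallest adjusted p among them was 0.106 in the fit limited to genes no dimmer than the median (12 interferon genes, 3 at an unadjusted p under 0.05) and otherwise between 0.201 and 0.599, with 1 to 5 genes at an unadjusted p under 0.05. Their median change ran from 0.04 to 0.09 with arrays left out and was 0.14 over those 12 genes. Over all genes the count of 14 became 6 with the replicate block, 215 with a trend, 9 with robust variances, 28 after quantile normalization, 23 after median centring, 179 with the level filter, 41 at an adjusted p under 0.1, and 0 when every probe set was fitted (3854 with an unadjusted p under 0.05) or without any 1 array (1200 to 1672). The pathway count of 0 became 1, MYD88 (0.60), with the trend and with the level filter. SSRP1, at -1.95, had an adjusted p of 0.0569 with the block, 0.0512 with robust variances and 0.144 over all probe sets, and -2.17 to -1.72 with arrays left out. Of 328 values of named genes under alternatives 322 kept their sign and side of the threshold. The side was fixed in the runs where no gene of any kind passed. With arrays left out the sign turned within ranges of -0.21 to 0.0615 for IRF3, -0.0285 to 0.36 for IFNGR2, -0.0544 to 0.43 for USP18 and -0.0446 to 0.29 for STAT5B. Same-numbered arrays had deviations correlated at 0.114, and the labels do not pair them. The cause of these shifts was not tested. With 2 arrays a group, 2 residual degrees of freedom and no detection values, small changes of dim genes could not be resolved.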
